A study of Mus musculus with 4 samples.

Results

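Marker genes of border-associated macrophages and of monocytes were examined in cultured microglia. The 9 genes, taken by symbol from 56832 listed genes, were 4 border macrophage markers (Pf4, Cbr2, Folr2 and F13a1) and 5 monocyte markers (Ly6c1, Ly6c2, Plac8, Ace and Lyz2). RNA had been sequenced from 4 libraries of microglia of C57BL/6 mice, labelled as female, grown in primary glial culture, trypsinised and sorted by flow cytometry. No age, genetic change or treatment is given in the labels, and neither are the antibodies and gates of the sort. The study set these cells beside cultured blood stem and progenitor cells, and beside such cells kept with microglia-depleted glia for 2 lengths of time. Those groups were not analysed here, so the comparison is between the border and the monocyte markers within each library.

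Microglia live in the brain parenchyma, whereas border-associated macrophages occupy the meninges, the perivascular spaces and the choroid plexus. Monocytes circulate in blood in a classical form with much Ly6C on the surface and a patrolling form with little of it, and they can enter an injured brain and become macrophages. Because these cells share many genes with microglia, a small set of markers is commonly used to tell them apart, and none of the 9 genes is restricted to a single cell type. Pf4 and F13a1 are also platelet genes, Ly6c1 and Ace are also made by endothelial cells, and Lyz2 is made by most macrophages and by neutrophils.

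The libraries held 23212183 to 28469813 gene counts. Of 14 microglial genes, 12 were at 1 CPM or more in every library (CPM, counts scaled to the total gene counts of the library), among them Tmem119, P2ry12 and Sall1, as were all 12 general macrophage genes. The share of all protein-coding genes was 51.8%. The microglial genes that did not reach 1 CPM in every library were Siglech (4, 15, 14 and 38 counts in replicates 1 to 4) and Crybb1 (5, 6, 9 and 6 counts). Against the sex in the labels, Ddx3y on the Y chromosome had 697 to 1140 counts per library beside 5864 to 9699 of Xist. Replicate 1 stood apart. In it 38 genes had at least 20 counts and at least 10 times the highest count of any other library, against 0, 0 and 1 such genes in replicates 2, 3 and 4. The level of each member without this library, and the calls that rest on it, are given below.

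Both Ly6c1 and Lyz2 have a close relative, so it matters whether a read can be assigned to one copy. The coding sequences of Ly6c1 and Ly6c2, each 393 bases without the stop codon, differed at 9 positions (97.7% identity), and the longest stretch without a difference was 188 bases. Those of Lyz2 and Lyz1, each 444 bases, were identical at 422 positions and differed at 22, with a longest identical stretch of 118 bases. The stretch of 120 coding bases with the most differences is shown for each pair, 5′ to 3′ on the coding strand, as GENCODE M21 transcripts on GRCm38 give it. Capitals mark the bases that differ within a pair, 6 for the Ly6c genes (coding bases 1 to 120, counted from the start codon) and 14 for the lysozyme genes (coding bases 37 to 156).
Ly6c1: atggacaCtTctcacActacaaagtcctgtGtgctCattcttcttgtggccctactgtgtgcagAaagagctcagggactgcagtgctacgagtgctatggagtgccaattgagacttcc
Ly6c2: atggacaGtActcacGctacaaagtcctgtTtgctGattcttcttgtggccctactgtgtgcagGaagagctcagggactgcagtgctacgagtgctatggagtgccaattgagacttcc
Lyz2: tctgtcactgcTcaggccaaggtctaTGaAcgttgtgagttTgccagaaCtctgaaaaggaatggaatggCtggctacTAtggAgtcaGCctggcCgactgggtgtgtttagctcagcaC
Lyz1: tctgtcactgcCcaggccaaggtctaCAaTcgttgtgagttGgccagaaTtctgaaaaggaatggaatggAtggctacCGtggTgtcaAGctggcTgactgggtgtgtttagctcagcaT
Over whole transcripts, 10.1% of the 100-base windows of Ly6c1 and 5.81% of those of Ly6c2 also occurred in another gene, against 1.97% for Lyz2 and 0% for Pf4, F13a1 and Plac8. The largest share was that of Folr2, 42.2% (all in Gm10602, described below), and those of Cbr2 and Ace were 5.37% and 1.88%. With windows of 150 bases the shares were 34.4% for Folr2, 2.29% for Ly6c1, 1.62% for Cbr2, 1.42% for Ly6c2 and 0% for Lyz2. An aligner that allows mismatches can leave more reads unassigned than these shares show.

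Among the border markers Pf4 was the only abundant one. Pf4 encodes platelet factor 4, a chemokine (CXCL4) stored in platelets and made by some tissue macrophages. Its counts were 1636, 1568, 1601 and 1883 in replicates 1 to 4, which is 60.6, 66.9, 69.0 and 66.1 CPM. Per unit of gene length this was 308.6 TPM ± 14.4 (SD, n = 4 libraries here and for every SD below; TPM, counts divided by the merged exon length and scaled to a common total), from 289 in replicate 1 to 323 in replicate 3. The level ranked 455 among 21190 protein-coding genes, and the libraries lay close together.

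The other platelet genes stood far below Pf4. Ppbp, which encodes another platelet chemokine, was at 3.97 TPM ± 0.440 with 27 to 35 counts per library, so that Pf4 was 69.3 to 89.1 times as high in the same library. Of 10 platelet and megakaryocyte genes, 2 (Ppbp and Gp1ba) were at 1 CPM or more in every library, and 5 had 0 counts in all of them, among these Gp1bb, Gp5, Gp6 and Gata1. The shares of all protein-coding genes were 51.8% and 28.5%. The summed level of those 10 genes was 8.27 to 10.6 TPM.

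The 3 remaining border markers were near the floor in every library. Folr2, the folate receptor beta of tissue macrophages, had 22, 25, 21 and 10 counts in replicates 1 to 4, or 0.814, 1.07, 0.905 and 0.351 CPM. Replicate 4 was lowest, and its 95% exact Poisson interval of 0.168 to 0.646 CPM overlapped that of replicate 1, 0.510 to 1.23 CPM, but not that of replicate 2, 0.690 to 1.58 CPM. Without an abundance filter the edgeR test of spread between libraries gave Folr2 an adjusted p of 0.98 (unadjusted p = 0.44). Its level was 1.72 TPM ± 0.673.

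The level of Folr2 depends on how overlapping genes were counted. In GENCODE M21, 63.1% of its exon bases are also exon of Gm10602 on the other strand, and Gm10602 was listed with 12, 22, 36 and 21 counts. If no read of the overlap was counted for Folr2, its level over the remaining bases would be 4.66 TPM; the part of the overlap in the result was not tested. Among the other members, 5.58% of the exon bases of Ace and 1.10% of those of F13a1 are shared in this way, with genes that had 0 counts (Gm11651 and Gm30489).

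Cbr2 encodes a carbonyl reductase found in lung and in some resident macrophages. It had 10, 8, 4 and 10 counts, or 0.370, 0.341, 0.172 and 0.351 CPM, with replicate 3 lowest, and its level was 0.790 TPM ± 0.237. F13a1, the A chain of clotting factor XIII, had 19, 13, 6 and 21 counts, or 0.703, 0.555, 0.258 and 0.738 CPM. Replicate 3 was lowest here too, with an interval of 0.0949 to 0.563 CPM that overlapped those of the other libraries, and the level was 0.284 TPM ± 0.111. Both genes were thus seen in all libraries by a few reads each.

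Lyz2 dominated the monocyte markers. It encodes lysozyme M, which cleaves bacterial cell walls. Its counts were 154038, 146210, 153588 and 178171 in replicates 1 to 4, or 5703, 6238, 6617 and 6258 CPM, which is 0.570%, 0.624%, 0.662% and 0.626% of all gene counts. At 15979 TPM ± 849 it ranked 3 among the protein-coding genes, and its lowest library was replicate 1. Lyz1, its close relative, had 4, 5, 8 and 4 counts.

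The ratio of Lyz2 to Pf4 hardly moved between libraries. Lyz2 was 51.8 ± 0.613 times as high as Pf4 per unit of length, with 51.6, 51.1, 52.6 and 51.8 in replicates 1 to 4. Both genes were lowest in replicate 1 and highest in replicate 3. For Pf4 the 95% exact Poisson intervals of replicates 2, 3 and 4 overlapped (63.6 to 70.3, 65.6 to 72.4 and 63.2 to 69.2 CPM), so its highest library is not settled. Relative to the level of Pf4, these intervals are wider than the spread of the ratio. The closeness of the ratios is therefore not read as the genes varying together. Over the 4 libraries the protein-coding genes with levels closest to Pf4 were Mylip (root mean square difference of log2 TPM of 0.05) and Tspan14 (0.05), and those closest to Lyz2 were Ctsd (0.22) and Ftl1 (0.23).

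No abundant RNA of the other monocyte markers was present. Ly6c2 and Plac8 had no read in any library. A count of 0 allows a level of up to 0.105 CPM in the deepest and 0.129 CPM in the shallowest library, for counting error only. Ly6c2 encodes the Ly6C antigen that marks classical monocytes, and Plac8 is a small cysteine-rich protein gene used as a classical monocyte marker. In any library Pf4 was at least 1154 times, and Lyz2 at least 58958 times, as high as the level that 3 counts of Plac8 would give. For Ly6c2, Lyz2 was at least 101473 times as high as that limit.

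Ly6c1, which encodes a related Ly6C antigen abundant on endothelial cells, had 3 counts in replicate 1 and 0 in replicates 2, 3 and 4. Its value in replicate 1, 0.111 CPM, had a 95% exact Poisson interval of 0.0229 to 0.325 CPM, which overlaps the range that 0 counts allow elsewhere (up to 0.159 CPM by the same interval). Ace encodes angiotensin-converting enzyme, which is used to mark patrolling monocytes. It had 26, 16, 17 and 34 counts, or 0.963, 0.683, 0.732 and 1.19 CPM, and a level of 0.573 TPM ± 0.150. All 4 intervals of Ace overlapped.

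**Figure D1:**
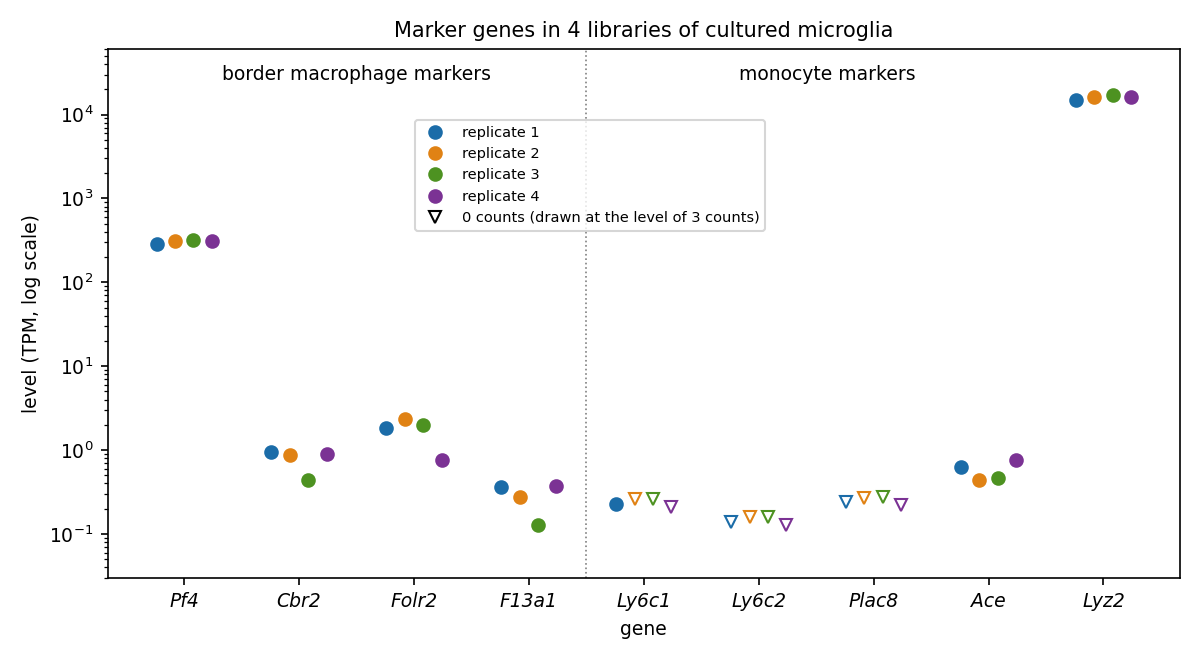
Level of each marker gene (TPM, log axis) in each of the 4 libraries (1 point per library); open triangles stand for 0 counts and are drawn at the level that 3 counts would give. Pf4 (308.6 TPM on average) and Lyz2 (15979 TPM) stand far above the other 7 genes, which all lie below 3 TPM.

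Ordered by mean TPM, the genes ran Lyz2, Pf4, Folr2, Cbr2, Ace, F13a1, Ly6c1, and then Ly6c2 and Plac8 at 0. Lyz2 and Pf4 overlapped with no neighbour over the libraries. Folr2 and Cbr2, Cbr2 and Ace, and F13a1 and Ly6c1 overlapped in range, while Ace (0.436 to 0.761 TPM) lay above F13a1 (0.130 to 0.369 TPM). That gap depends on the merged exon lengths. With the longest transcript as length the means were 0.467 TPM for Ace and 0.367 TPM for F13a1. Without gene length the ranges overlapped (0.683 to 1.19 CPM for Ace and 0.258 to 0.738 CPM for F13a1). Within libraries, Folr2 was under Cbr2 in replicate 4 only (0.765 against 0.891 TPM). Cbr2 was under Ace in replicate 3 only (0.439 against 0.468 TPM), so the order of these genes is not settled. F13a1 was above Ly6c1 in every library, but in replicate 3 its 0.130 TPM lay under the 0.260 TPM that 0 counts of Ly6c1 allow. Only Pf4 and Lyz2 were at 1 CPM or more in every library, 2 of 9 members, where the share of all protein-coding genes was 51.8%. Ly6c2 and Plac8, 2 of 9, had 0 counts in every library, where the share of protein-coding genes was 28.5%. In bulk RNA such as this, few cells with much of a transcript and many cells with little of it cannot be told apart.

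Set against each other within each library, the border markers had the higher median and the monocyte markers the higher sum. The median over the 4 border markers was 1.39, 1.60, 1.21 and 0.828 TPM in replicates 1 to 4. The median over the 5 monocyte markers was 0.228 TPM in replicate 1 and 0 in the others. On the log2(TPM + 1) scale the border minus monocyte difference was 0.94, 1.32, 1.05 and 0.87, a mean of 1.04 ± 0.198, with the border markers higher in 4 of 4 libraries. No p is given, because the genes were chosen with earlier results of these data known.

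The sums gave the other direction. The border markers summed to 292 to 326 TPM per library, of which Pf4 made up 98.9% to 99.3%. The monocyte markers summed to 14906 to 16982 TPM, nearly all of it Lyz2. Without Lyz2 the monocyte markers summed to 0.436 to 0.854 TPM, and without Pf4 the border markers summed to 2.02 to 3.48 TPM, so that the remaining border markers were higher in 4 of 4 libraries. There were 16 pairs of a border marker and a monocyte marker other than Lyz2. The border marker was higher in 15, 15, 14 and 15 pairs in replicates 1 to 4. The exceptions were F13a1 under Ace and, in replicate 3, Cbr2 under Ace. Pairs with a monocyte marker at 0 counts (Ly6c2, Plac8 and, outside replicate 1, Ly6c1) were won by any border read, so they carry no weight. In replicate 3 the 0.130 TPM of F13a1 lay under the 0.260, 0.159 and 0.274 TPM that 0 counts of Ly6c1, Ly6c2 and Plac8 allow.

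**Figure D2:**
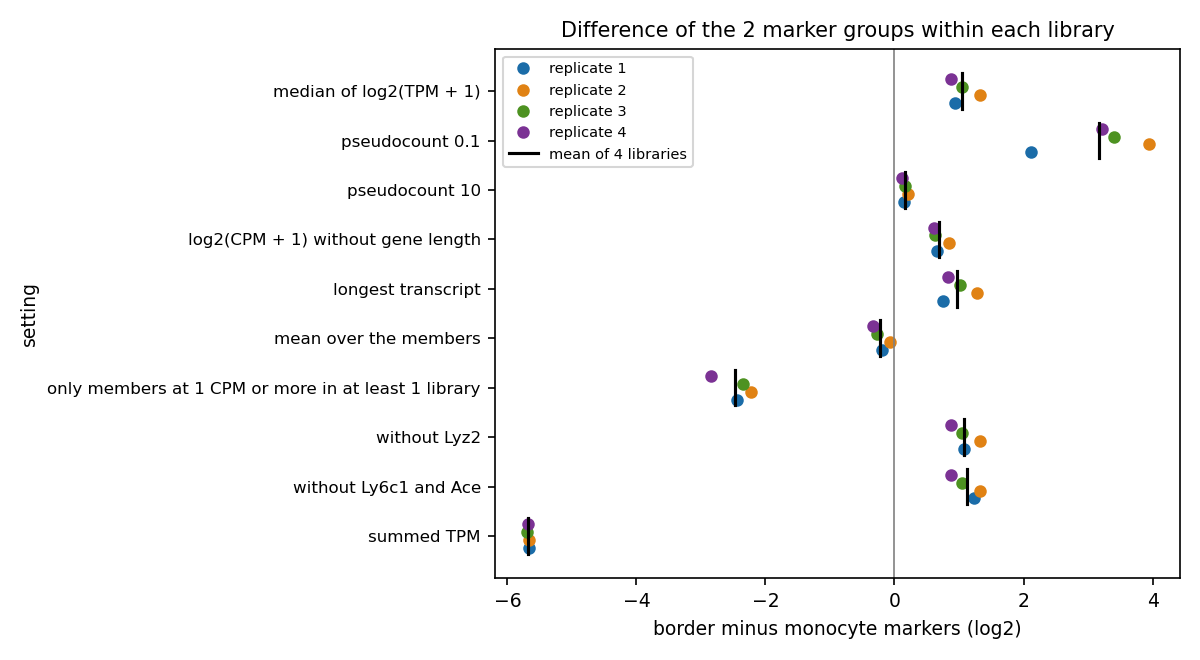
Border minus monocyte difference (log2) in each library (points) and its mean (black bars) for the median of log2(TPM + 1) and 9 other settings. It lies above 0 for medians over all members (mean 1.04), and below 0 for means over the members (mean -0.22), for members that reached 1 CPM in any library (mean -2.47) and for summed TPM (mean -5.68).

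With means over the members in place of medians the difference was -0.22 ± 0.112. When members under 1 CPM in all libraries were left out, which keeps Pf4 and Folr2 against Ace and Lyz2, it was -2.47 ± 0.267. In the plot of the difference by setting, the 3 settings below 0 are those in which the level of Lyz2, and not only its rank, enters the value.

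Other genes of border-associated macrophages were mostly present, unlike the members Cbr2, Folr2 and F13a1. Of 20 further genes, 14 were at 1 CPM or more in every library, where the share of all protein-coding genes was 51.8%. Another 3 had 0 counts in every library, where that share was 28.5%. In all, 9 averaged 100 TPM or more, and the lowest of them, Clec4n (101 TPM), was above 92.6% of protein-coding genes. The median of these 20 genes was 51.6 TPM ± 2.33, beside 1.68 TPM ± 0.123 over all protein-coding genes. The highest were the scavenger receptor Stab1 (752 ± 51.1), the membrane protein gene Ms4a7 (527 ± 37.0), the endocytic adaptor Dab2 (393 ± 15.7) and Igfbp4, which encodes a binding protein of insulin-like growth factors (360.5 ± 14.5). Stab1 was 2.21 to 2.74 times as high as Pf4 in the same library. Several of these genes, Dab2 and the transcription factor Maf among them, are also active in other macrophages.

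The genes most used to define border macrophages were split. The mannose receptor Mrc1 was at 295 TPM ± 30.9, with 268 in replicate 3 and 331 in replicate 4. Lyve1, a hyaluronan receptor, Cd163, a haemoglobin scavenger receptor, and the lectin gene Cd209a had 0 counts in every library. The lectin genes Clec10a and Cd209f and the chemokine gene Ccl24 had 16, 6 and 11 counts over all libraries.

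Of 16 further genes of classical monocytes, 9 were at 1 CPM or more in every library, 0 averaged 100 TPM, and 5 had 0 counts everywhere, among these Chil3, the clotting factor gene F10, Cd177 and Ly6i. The counts of 9 and 5 lie near the shares of all protein-coding genes given above, 51.8% and 28.5%. A mean of 100 TPM is rare among all protein-coding genes, 92.6% of which lay under the 101 TPM of Clec4n. The count of 0 is therefore not read as a result about these genes. The highest were Mgst1 (73.9 TPM ± 9.03), S100a4 (65.2 ± 17.6), fibronectin Fn1 (57.1 ± 6.997) and the hyaluronan receptor Cd44 (53.8 ± 7.31). Ccr2, the chemokine receptor that brings classical monocytes out of the marrow, had 41, 59, 56 and 43 counts, at 0.997 TPM ± 0.272. The list median was 9.54 TPM in replicate 1 and 3.22 to 4.23 TPM in the other libraries; the higher value came with a single gene, Hp, at 12.6 TPM in replicate 1 and 0 to 0.295 TPM elsewhere.

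Of 12 further genes of patrolling monocytes, 7 were at 1 CPM or more in every library, near the 51.8% of all protein-coding genes. The transcription factor Cebpb (222 TPM ± 15.1) and Gngt2 (140 ± 16.4) were highest, followed by the transcription factor Klf2 (53.6 in replicate 1 and 21.3 to 31.2 in the others) and Spn, which encodes CD43 (17.3 ± 2.30). Nr4a1, a transcription factor needed by patrolling monocytes and also an immediate-early gene, was at 2.29 TPM in replicate 1 and 0.912 to 1.08 TPM in the others, and Adgre4 had 0 counts. The list median was 3.999 TPM in replicate 1 and 1.70 to 1.91 TPM in the other libraries; Fabp4 and Nr4a1 were the list genes near that median that were highest in replicate 1.

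**Figure D3:**
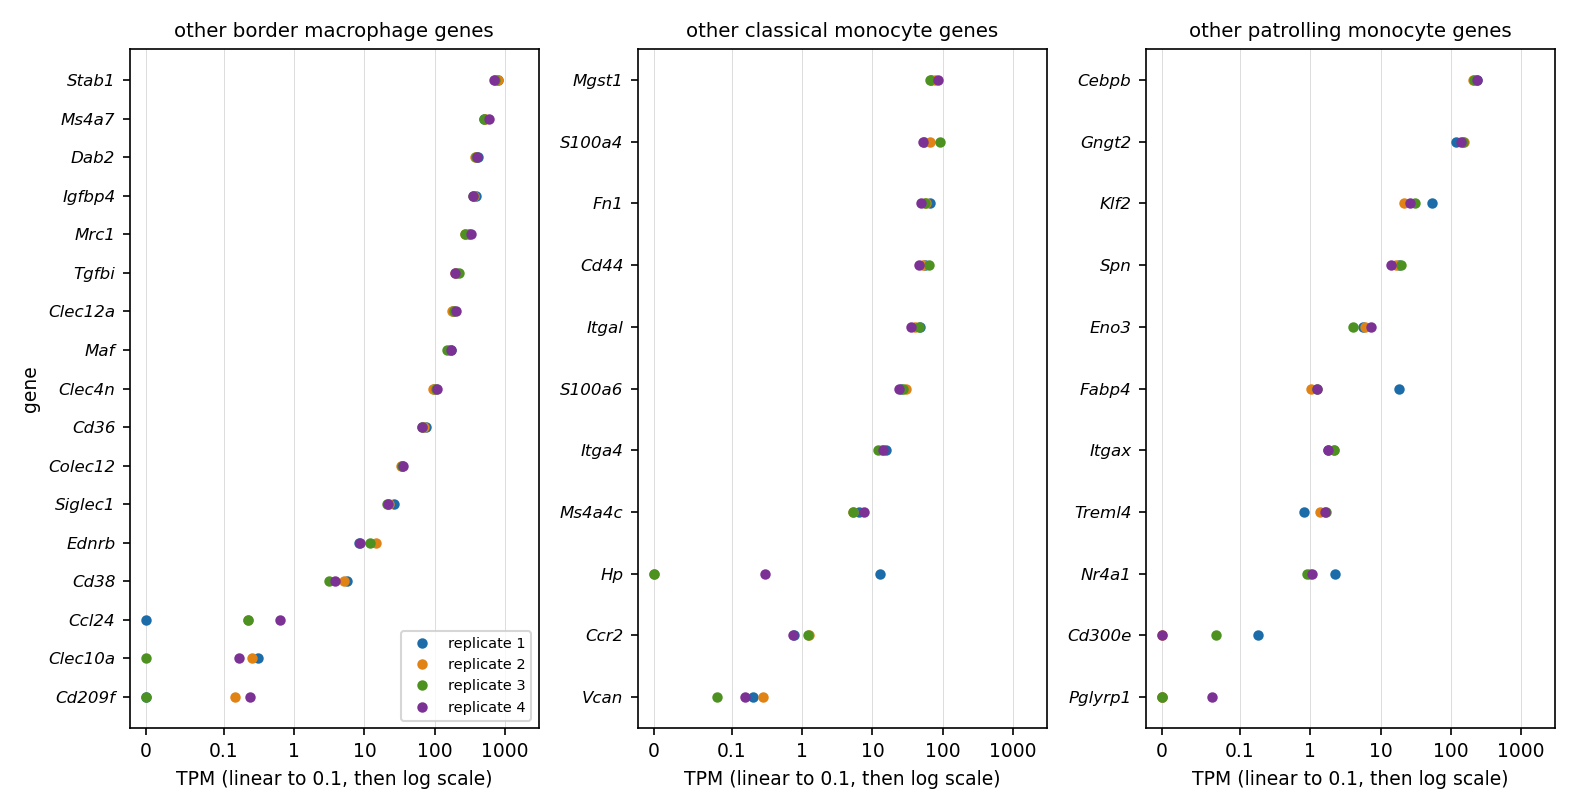
Level of each further gene (TPM, linear to 0.1 and then log axis) in each library (points) for the 17 border macrophage, 11 classical monocyte and 11 patrolling monocyte genes with a count in any library, ordered by mean. Stab1 leads the border genes at 752 TPM and Mgst1 the classical monocyte genes at 73.9 TPM. Hp and Fabp4 have replicate 1 apart from the other libraries.

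The spread between libraries was tested in edgeR for every gene past the abundance filter, asking whether a gene varied more than genes of like abundance. Of 12879 genes 143 passed (Benjamini-Hochberg adjusted p under 0.05), which is 1.11%. Of the same 12879 genes, 875 had an unadjusted edgeR p under 0.05, and DESeq2 marked 69 as dispersion outliers. Only Pf4, Ace and Lyz2 of the members entered the test. Of these 3, 0 passed (edgeR adjusted p of 1.0 for each), 0 had an unadjusted p under 0.05, and DESeq2 marked 0 as dispersion outliers. The smallest unadjusted p was 0.58, for Ace. Of the further border macrophage genes, 0 of 14 tested passed in edgeR, with 2 at an unadjusted p under 0.05 and 0 DESeq2 outliers. Of the further classical monocyte genes, 0 of 9 passed, with 4 at an unadjusted p under 0.05 and 0 DESeq2 outliers.

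Of 9 further patrolling monocyte genes tested, 2 passed, and both were highest in replicate 1. Fabp4, a fatty acid binding protein gene of patrolling monocytes, fat cells and capillaries, had 638 counts in replicate 1 and 32, 38 and 47 in the others (edgeR adjusted p = 1.4e-42). Klf2 had 777 counts in replicate 1 and 273, 396 and 415 in the others (edgeR adjusted p = 4.7e-05). Without replicate 1 the edgeR adjusted p was 1.0 for Fabp4 and 0.89 for Klf2, so both calls rest on that library.

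The single library that held Ly6c1 reads also held reads of fat and heart muscle genes. These lists of fat and heart genes were drawn up after the values were seen, so they carry no test. Of 12 adipocyte genes, 8 had counts in 1 library alone, as had 2967 of all 22154 genes with any count. Of those 8, 7 had them in replicate 1, the hormone genes Adipoq, Lep and Retn with Cfd, Plin1, Cidec and Pck1. Cfd, which encodes adipsin, had 434 counts there, Adipoq 73, and each 0 in the others. The adipocyte genes summed to 138 TPM in replicate 1 and 23.8 to 28.3 TPM elsewhere, mostly Lipe, and Ucp1 had 0 counts in replicate 1. Of 12 heart muscle genes, summing to 32.0 TPM in replicate 1 and 1.98 to 2.23 TPM elsewhere, the myosin gene Myh7 had 464 counts there and 1, 2 and 2 in the others, whereas Pln and Nppa had 0 counts everywhere.

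Endothelial genes were mixed in replicate 1. Of 12, 4 were at 1 CPM or more in every library, where the share of all protein-coding genes was 51.8%. The 12 genes summed to 41.5 TPM in replicate 1 and to 46.3 to 51.7 TPM in the others. Their median was 1.11 TPM in replicate 1 and 0.275 to 0.625 TPM in the others. Cldn5, a tight junction gene of brain capillaries, had 16 counts and the receptor gene Tie1 3 counts in replicate 1, and both had 0 in the others. Tek, Emcn and Esam had 0 counts in every library. Hp, which encodes haptoglobin and was on the classical monocyte list, had 159 counts in replicate 1 and 0, 0 and 4 in the others. The part of these cell types in the 3 Ly6c1 reads was not tested. Without replicate 1 Ly6c1 had 0 counts, Pf4 was at 315 TPM, Folr2 at 1.69 and Cbr2 at 0.733. Ace was then at 0.555 TPM, F13a1 at 0.259 and Lyz2 at 16337.

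**Figure D4:**
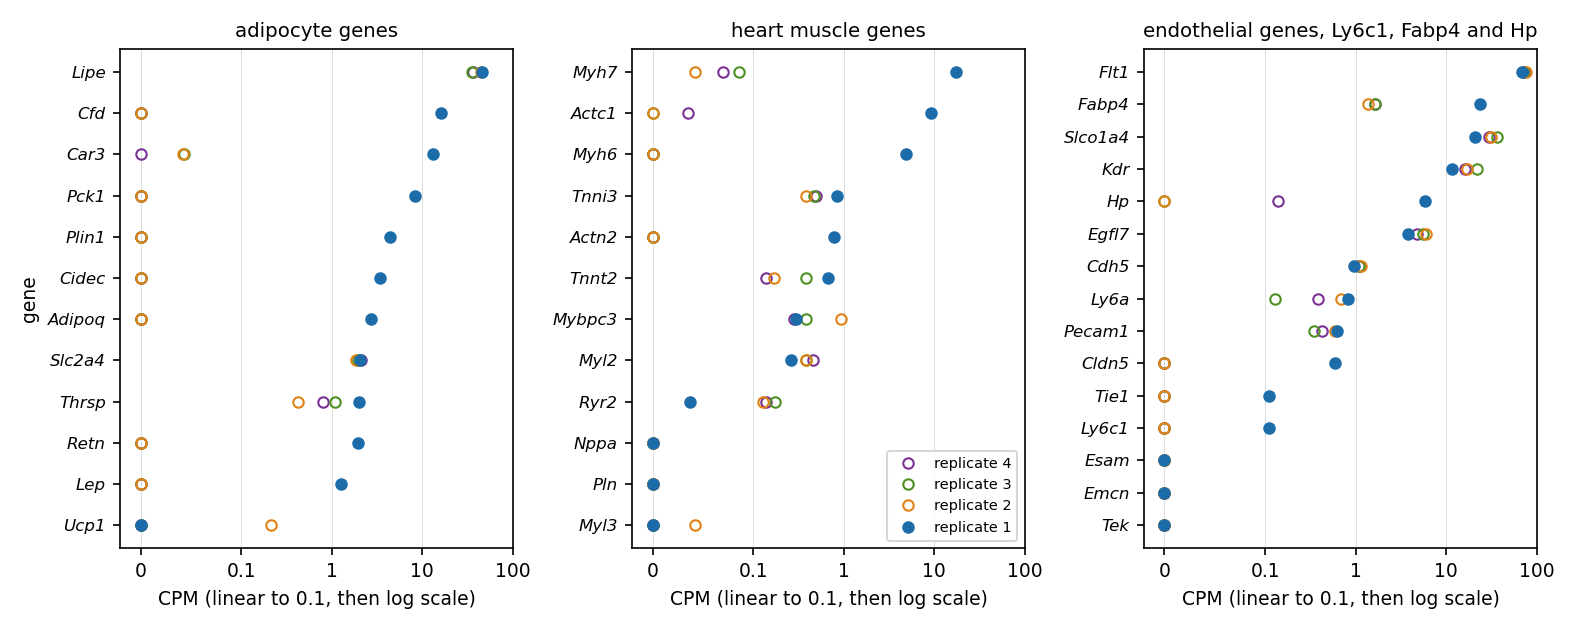
CPM (linear to 0.1, then log axis) of 12 adipocyte genes, 12 heart muscle genes, and 12 endothelial genes with Ly6c1, Fabp4 and Hp, in replicate 1 (filled points) and in the other libraries (open points). Cfd, Adipoq, Cldn5 and Ly6c1 have counts in replicate 1 and 0 in the others, whereas Flt1, Lipe and Slc2a4 lie close together in all libraries.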

How the data were processed

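RNA-seq of 4 libraries of 1 group, cultured microglia, was used. The deposited values are raw counts of reads for each gene symbol, not normalized. Per the submitters' processing notes, STAR 2.7.10a, SAMtools 1.16.1, HTSeq 0.11.2 and mm39 (GRCm39) were used; which annotation release, strand setting and overlap mode applied is not given in the sources used here. Nothing in the labels ties the libraries to different cultures or animals. SDs and p-values therefore describe how far the libraries differ from each other, and that spread may be technical. The 5 summary lines, 11.8% ± 0.159 (SD, n = 4) of all reads listed, were left out. There were 0 columns of no sample.

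TPM was computed from the counts and merged exon lengths in GENCODE M21 (GRCm38, another build than the files', so no coordinates are given), matched by symbol for 89.1% of the listed symbols. Spread between libraries was tested in edgeR 4.0.16 (R 4.3.3) with 1 mean per gene, TMM scaling, filterByExpr and the trended dispersion, comparing each deviance with a chi-square on 3 degrees of freedom; it was tested on simulated data. DESeq2 1.42.0 was an alternative. Sequences were aligned with Biopython 1.88. Count intervals are 95% exact Poisson, and a count of 0 allows up to 3 counts.

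The members and lists were chosen with earlier results of these data known. Named were all members, of each further list the 4 genes highest in mean TPM, those at 0 counts and those past the spread test, and the 2 protein-coding genes closest in level to each member detected in every library. A few genes that this rule takes are not reported here. Other genes were chosen after their values were seen.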

Additional observations from a re-analysis of the deposited data

Results flagged for a closer look

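In a group of 4 libraries, a gene was listed when the gap between its highest or lowest library and the nearest other exceeded Dixon's 95% critical value as a share of the whole range. Chance lists about 1 in 20 groups of continuous values, but every gene counted in 1 library alone is listed by construction. Among the 7 members with any count 2 were listed, and among all 22154 genes with any count 18.0% were, so no excess is read from it. Cbr2 was at 0.172 CPM in replicate 3 (4 counts) against 0.341 to 0.370 CPM in the others. Its 95% exact Poisson interval there, 0.0470 to 0.441 CPM, overlapped those of the other libraries, and without an abundance filter the edgeR test of spread gave it an adjusted p of 1.0 (unadjusted p = 0.88). Ly6c1 was at 0.111 CPM in replicate 1 (3 counts) against 0 in the others, which is the case listed by construction.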

How the results depend on the processing

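The border minus monocyte difference, 1.04 on the log2(TPM + 1) scale, was 3.17 with a pseudocount of 0.1, 0.16 with a pseudocount of 10 and 0.69 on CPM without gene length. It was -0.22 with means over the members, -2.47 with only the members that reached 1 CPM in any library and, chosen after seeing the data, -5.68 on summed TPM; in these 3 Lyz2 has weight by construction. It was 1.08 without Lyz2. Without Ly6c1 and Ace it was 1.12, which is the border median itself, because Ly6c2 and Plac8 then hold the monocyte median at 0. When each library was left out it was 0.95 to 1.10. A mean of 4 libraries cannot leave 1 SD in that way, so neither of these 2 settings says anything about stability. The number of members at the detection limit in every library was 2, and 3 at 0.5 CPM. Of the further patrolling monocyte genes 7 were at 1 CPM and 4 at 5 CPM, a stricter limit. The shares of all genes at 0.5 and 5 CPM are not given here, so nothing is read from these changes. In place of the 143 genes past the spread test there were 532 with a common dispersion, of which only 81 were among the 143. DESeq2 marked 69 outliers, all of them among the 143. Leaving out each library gave 47 (without replicate 1, 36 of them among the 143) to 118 genes, with 52 without replicate 3. The cause was not tested. In these fits 0 members passed; the smallest unadjusted p of a member was 0.18, for Ly6c1 without the abundance filter. Each member's level stayed within 1 SD when any library was left out. With 4 libraries a mean can do nothing else, so this says nothing about stability. With the longest transcript as length, 7 of 9 levels stayed within 1 SD of the main value, and Pf4 (286.5 TPM) and Lyz2 (12099 TPM) did not. Depth limits the 7 members under 100 counts in total. No paired analysis was possible because there is 1 group.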

Other observations

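The 38 genes seen almost only in replicate 1 held 4152 counts, 0.0154% of that library, and 16 of them had 0 counts in every other library. Besides the fat and heart muscle genes given above they included Acta1, a skeletal muscle actin gene (51 counts against 0 to 5), Cyp2e1 (58 against 0) and Tubb3, a neuronal tubulin gene (51 against 2 to 5). Predicted genes and pseudogenes were also among them, such as Gm16385 (99 counts against 2 to 9), Gm49017 (84 against 0) and Rpl19-ps1 (57 against 4 to 5). Some fat and heart genes did not follow: Slc2a4 was at 1.88 to 2.11 CPM in all libraries, and Myl2 had 7 counts in replicate 1 and 9 to 13 in the others. This set was picked after the values were seen.

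Within the further border macrophage genes the levels spanned the whole range measured, from Stab1 with 50591 to 64017 counts per library to Lyve1, Cd163 and Cd209a with 0. Siglec1, a sialic acid-binding receptor gene, was in between at 22.6 TPM ± 2.23, and Cd38 at 4.41 ± 1.125.

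Genes of other cell types were read as a check on what the sorted cells held. Of all protein-coding genes, 51.8% were at 1 CPM or more and 28.5% had 0 counts in every library. These shares also apply to the next paragraph. Among the highest microglial genes were Fcrls (5346 TPM ± 18.0), Cx3cr1 (2311 ± 78.4) and Tmem119 (1380 ± 79.96), and the highest general macrophage genes were Tyrobp, Csf1r, Cd68 and Adgre1 (1951 to 4672 TPM). Of 12 neutrophil genes only Csf3r, which macrophages also make, was at 1 CPM or more in every library. S100a8, Mmp8 and Ltf averaged under 0.4 TPM, and Ly6g, S100a9, Mpo, Elane, Camp, Ngp, Retnlg and Cxcr2 had 0 counts. Of 10 lymphocyte genes 0 reached that level in every library. Cd4, Cd79a, Ms4a1 and Klrb1c were the highest, and Cd3g, Cd8a, Nkg7 and Trac were among those with 0 counts. The highest endothelial genes were Flt1, Slco1a4, Kdr and Egfl7 (4.72 to 18.1 TPM), and the highest platelet genes after Ppbp were Treml1, Gp1ba and Gp9 (0.803 to 2.37 TPM).

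Astrocyte genes were at 1 CPM or more in every library for 9 of 10, with Clu (210.5 TPM ± 44.9), Gfap (50.3 ± 14.2), Aqp4 (18.5 ± 1.51) and Slc1a3 (17.8 ± 3.94) highest, as were 7 of 10 mural and fibroblast genes, led by Acta2 (84.5 ± 21.2), Tagln, Col1a1 and Pdgfrb. Clu, Gfap and Slc1a3 passed the edgeR spread test and were lowest in replicate 1. Without that library their adjusted p was 0.57, 0.24 and 1.0, and Slc1a3 was also lost without replicate 3 (adjusted p = 0.17). Acta2 also passed (adjusted p = 0.0041), but not without replicate 3 (adjusted p = 0.94). Of the microglial genes, P2ry12 and Sparc passed. The adjusted p of P2ry12 was 0.0010, and 0.40 without replicate 3 or 0.061 without replicate 4. That of Sparc was 0.00013, and 0.45 without replicate 1, where it was lowest. With a common dispersion in edgeR the adjusted p was 0.076 for Clu, 0.067 for Slc1a3, 0.077 for Sparc and 0.12 for P2ry12, so these 4 calls were lost there too.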
